A study of Mus musculus with 2 samples.

Results

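Genes of the mitotic spindle, the centromere and the spindle checkpoint were followed in RAW264.7 cells, a mouse macrophage line from a leukaemia, with and without a preparation that the labels name FAPD10-exos. The set held every kinesin with a numbered Kif symbol and every gene with a single-letter Cenp symbol. It also held named members of the Ndc80 complex, the spindle checkpoint, the mitotic kinases and cyclins, and Tpx2, Birc5, Top2a, Mki67 and Ube2c. The match was by gene symbol and used no measured value, and it gave 82 of 56791 genes in the table. As the labels are read here, both cultures were wild type, grew in DMEM with fetal bovine serum and were kept for 24 h with mouse IL-4 (20 ng, recombinant), labelled as M2 polarization. One culture was given 10000000 FAPD10-exos particles together with the IL-4 and is called treated here; the other is labelled vehicle. What FAPD10 stands for and which cells gave the particles are not given in the labels.

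Each group held 1 library, so no difference here has a replicate check, no p-value was computed, and every value describes these 2 libraries only. The treated library held 37196241 counts and the vehicle library 36152743. Levels are given as CPM, counts scaled to the effective library size, and 1 CPM was worth 35.6 counts (treated) or 37.8 counts (vehicle). Each ratio divides the treated by the vehicle level and is followed in parentheses by its 95% counting interval. The intervals were taken from halved counts, because among genes with 1 to 50 counts 76.3% (treated) and 75.2% (vehicle) of values were even, as when both ends of a read pair are counted. Such intervals cover counting error only. All 10 macrophage markers, among them Cd68, Csf1r and Lyz2, were measured, that is at a mean of at least 1 CPM. Their median log2 ratio was -0.07, with Adgre1 (2.91-fold) and Spi1 (1.596-fold) higher and Mpeg1 (2.11-fold) and Ptprc (1.56-fold) lower in treated cells. No fibroblast, endothelial, muscle or lymphocyte marker was measured. Their summed counts were 4, 26, 14 and 4 in the treated library against 4, 14, 20 and 2 in the vehicle library, with Col1a1, Dcn and Lum at 0 in both.

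Kinesins are motor proteins that walk on or take apart microtubules: mitotic kinesins build the spindle and move chromosomes, and the others carry cargo or shape microtubules between divisions. Centromere proteins mark the place on each chromosome where the kinetochore forms, and the Ndc80 complex with Knl1 binds spindle microtubules there. The spindle checkpoint holds back the anaphase-promoting complex until every chromosome is attached. Many of these genes are transcribed late in the cell cycle, through promoters that carry a cell cycle homology region (CHR) and CCAAT boxes. In RNA from a whole culture, fewer dividing cells and less RNA per dividing cell cannot be told apart.

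The promoters of 4 members are shown because they share those elements while their ratios, without length correction, run from higher through level to lower. Each is the 250 bases before the RefSeq start on build GRCm38.p6, 5′ to 3′ on the gene's strand. Capitals mark matches on either strand to TTTGAA or TTCGAA, the searched forms of the CHR, and to CCAAT. Ube2c lies at chr2:164769679-164769928 on the plus strand, Top2a at chr11:99024190-99024439, Cdk1 at chr10:69352913-69353162 and Mki67 at chr7:135716380-135716629, the last 3 on the minus strand.
Ube2c: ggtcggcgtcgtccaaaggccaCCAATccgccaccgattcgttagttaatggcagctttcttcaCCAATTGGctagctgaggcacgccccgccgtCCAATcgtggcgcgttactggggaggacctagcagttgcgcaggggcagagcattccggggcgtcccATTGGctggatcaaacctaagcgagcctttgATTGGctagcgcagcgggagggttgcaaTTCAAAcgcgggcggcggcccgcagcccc
Top2a: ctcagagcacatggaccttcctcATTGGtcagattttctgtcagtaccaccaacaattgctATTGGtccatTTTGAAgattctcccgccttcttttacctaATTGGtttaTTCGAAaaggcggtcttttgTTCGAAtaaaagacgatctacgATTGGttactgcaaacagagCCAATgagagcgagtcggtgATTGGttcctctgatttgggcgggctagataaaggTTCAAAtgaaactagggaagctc
Cdk1: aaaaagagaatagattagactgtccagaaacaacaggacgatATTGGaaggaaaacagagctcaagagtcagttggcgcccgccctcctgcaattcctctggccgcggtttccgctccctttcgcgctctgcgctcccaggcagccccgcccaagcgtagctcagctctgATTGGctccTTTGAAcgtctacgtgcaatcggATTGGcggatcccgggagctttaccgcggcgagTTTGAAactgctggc
Mki67: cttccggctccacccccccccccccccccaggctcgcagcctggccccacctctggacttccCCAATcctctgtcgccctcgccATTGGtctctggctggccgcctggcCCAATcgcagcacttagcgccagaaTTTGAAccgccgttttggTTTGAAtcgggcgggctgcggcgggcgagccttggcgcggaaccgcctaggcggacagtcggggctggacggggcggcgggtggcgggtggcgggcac
In Ube2c, 2 of the 6 CCAAT matches overlap on opposite strands, so they read as a single capital run. The CHR match nearest to the start began 29 bases before it in Ube2c, 23 in Top2a, 15 in Cdk1 and 98 in Mki67. RefSeq windows, 78 in number, were found for 70 of the 82 members. The start used for 34 of the 78 was exactly a transcript start in the GENCODE M21 annotation. That held for Top2a but not for Ube2c, Cdk1 or Mki67, so their distances apply to the RefSeq start only. Of the 51 matched members that are not cargo or other non-mitotic kinesins, 15 (29.4%) had both motifs in the 250 bases of a window, against 6.14% of the 8506 measured genes with a window. At least 1 CHR match was found in 33.3% of them and in 15.2% of measured genes, and CCAAT matches in 62.7% and 41.1%. The 15 members with both motifs, all measured, had log2 ratios from -0.95 to 0.88 with a median of 0.24, and the 35 measured members without both had a median of 0.03. The -0.95 was that of Kif14, whose window did not end at a transcript start of M21 and may not be a promoter. These shares and medians take every RefSeq window as a promoter, which was not tested. The order was the other way for CCAAT, with medians of 0.03 over 31 members with a match and 0.28 over 19 without, and for CHR the medians were 0.06 over 17 with and 0.03 over 33 without. Without length correction, genes with the same promoter letters thus lay on both sides of 1. After the exon length correction described further on, Ube2c, Top2a, Cdk1 and Mki67 stood at log2 ratios of 0.59, 0.49, 0.01 and -0.19. After transcript length correction they stood at 0.25, 0.52, 0.25 and 0.28, all above 0. A match is a description of letters and does not show a bound site.

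Of the 82 members, 72 were measured. A gene is called higher or lower here when it lay at least 1.5-fold from level and its interval left out 1. By that rule 8 members were higher in treated cells, against 16.2% of all 12264 measured genes, and 16 were lower, against 18.8%. At 2-fold, 0 members were higher, against 4.17% of measured genes, and 9 were lower, against 8.64%. Whatever the size, 27 intervals lay above 1 and 28 below, against 32.5% and 32.2% of measured genes. The median log2 ratio was -0.01, beside 0.01 for all measured genes. Higher genes made up 46.3% of all called genes, and 31.5% when libraries were scaled by total counts instead of TMM (trimmed mean of M-values), which shifted the median of all genes by -0.13; Bub3 and Cenpv were then under 1.5-fold, and Bub1b and Kif20b were called lower. Under upper quartile scaling Cenpk, Kif18b and Mki67 were within 1.5-fold, and Ccna2, Cenpi and Kif28 were called higher. The 8 higher members were Cenps, Cenpw, Cenpm, Cenpv, Spc24, Bub3, Birc5 and Ube2c. The 16 lower ones were 9 kinesins outside mitosis, the mitotic kinesins Cenpe, Kif14 and Kif18b, and Cenpf, Knl1, Cenpk and Mki67.

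**Figure D1:**
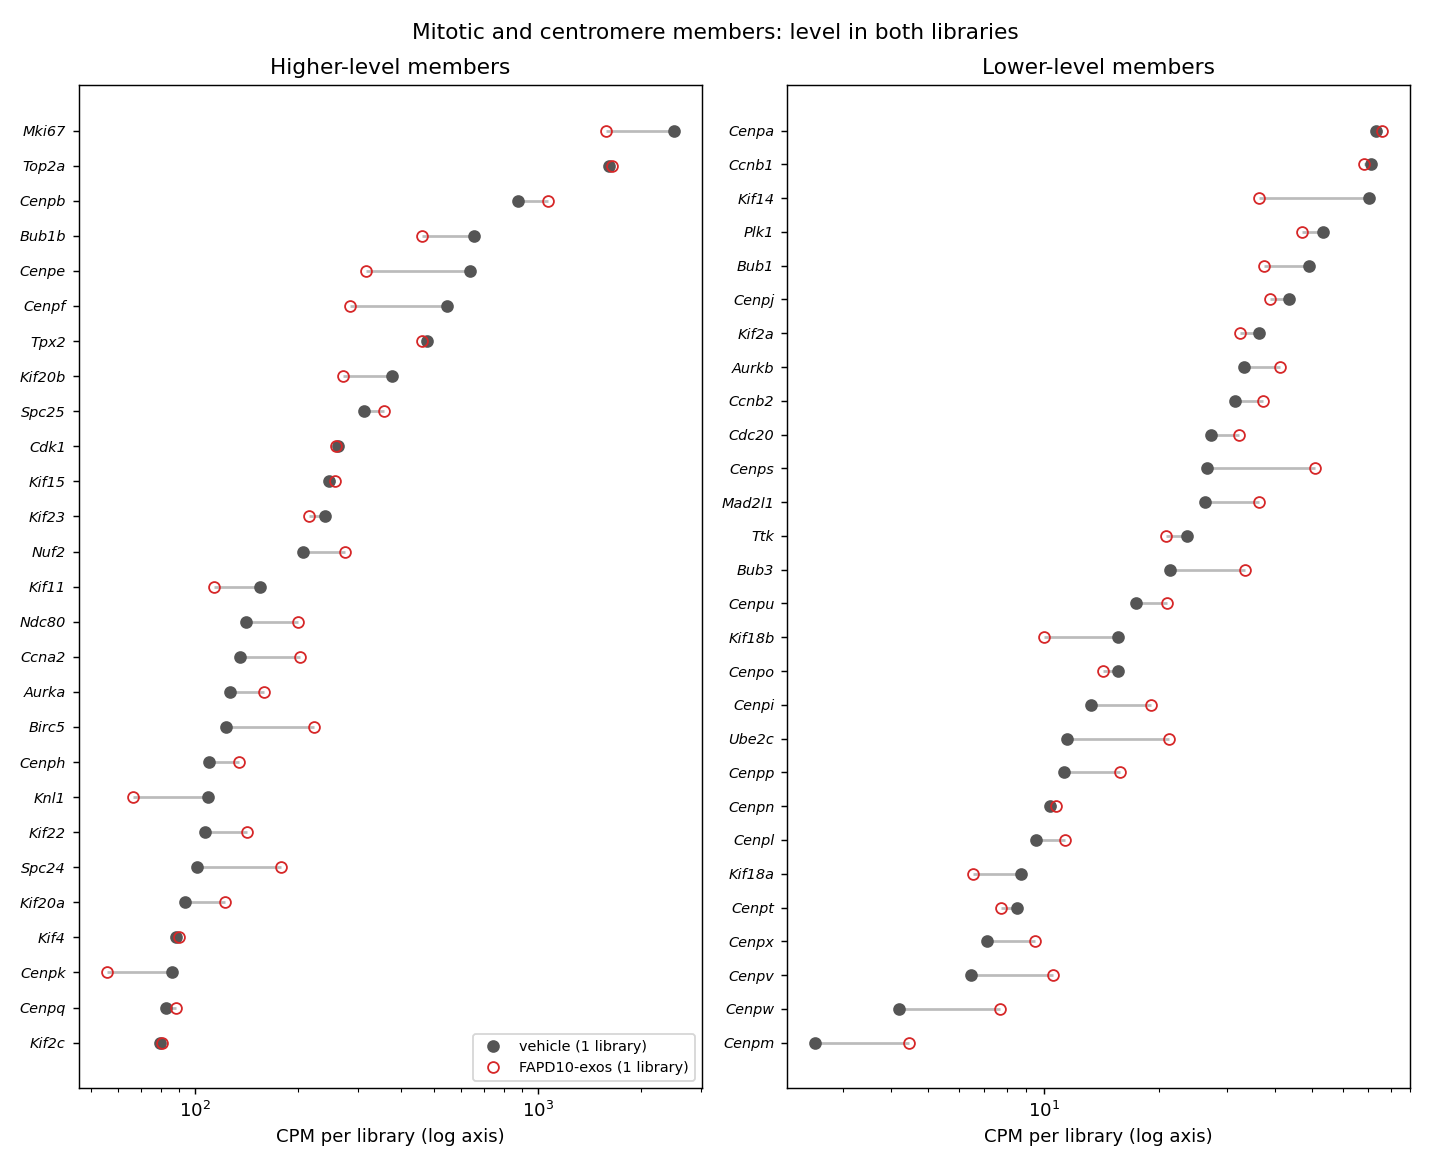
CPM on a log axis in the vehicle library (filled) and the FAPD10-exos library (open) for the 55 measured members other than the non-mitotic kinesins, ordered by vehicle level, 1 library each and so without error bars. Mki67 and Top2a stand highest, with Mki67 at 1586 CPM treated against 2493 CPM vehicle, while the Top2a points nearly coincide.

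Among general marks of dividing cells the values differed by gene. Mki67, the gene of the proliferation marker Ki-67, stood at 1586 CPM treated and 2493 CPM vehicle and was 1.57-fold lower (1.55 to 1.595). Top2a, the DNA topoisomerase that untangles sister chromatids, stood at 1647 and 1618 CPM, a ratio of 1.02 (1.00 to 1.03). Birc5, the gene of survivin in the chromosomal passenger complex, stood at 222.5 and 123.2 CPM and was 1.81-fold higher (1.72 to 1.90). Ube2c, the ubiquitin-conjugating enzyme that works with the anaphase-promoting complex, stood at 21.1 and 11.5 CPM, 1.84-fold higher (1.56 to 2.19). Tpx2, which activates Aurora A on the spindle, was near level at 459 and 475 CPM. Without length correction these 5 genes gave no single direction. After the transcript length correction described further on, all 5 stood above 0, at log2 ratios from 0.21 (Birc5) to 0.52 (Top2a). After exon length correction Mki67 alone stood below 0, at -0.19, and Tpx2 stood at 0.02. Per kilobase of exon and scaled to a common total (TPM), Mki67 led all members in the vehicle library at 747 TPM, followed by Top2a at 541.5 and Cenpb at 541 TPM. In the treated library Cenpb led at 528 TPM, before Top2a at 438 and Mki67 at 378 TPM. TPM was not scaled by TMM, so these values rank genes within a library and are not ratios between libraries. By CPM the ratio was 1.23 for Cenpb and 1.02 for Top2a. Ube2c shares 22.8% of its exon length with Tnnc2, and whether counting used strand is not given, so its value is uncertain.

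The kinases and cyclins that drive entry into mitosis stayed within 1.5-fold, all 7 of 7. Of all 12264 measured genes, 7972 were likewise called neither higher nor lower. Cdk1, the mitotic cyclin-dependent kinase, stood at 258 CPM treated and 262.5 CPM vehicle, a ratio of 0.984 (0.945 to 1.02). Its partner cyclin gene Ccnb1 stood at 68.4 and 71.0 CPM, a ratio of 0.963 (0.890 to 1.04). Ccnb2, the other B-type cyclin, stood at 37.3 and 31.4 CPM, 1.19 (1.06 to 1.33). Ccna2, the cyclin of S and G2 phase, had the highest ratio of the group, at 203 and 136 CPM, a ratio of 1.49 (1.42 to 1.57) that lies just under the threshold. Aurka and Aurkb, the Aurora kinases of spindle poles and centromeres, stood at 159 against 127 CPM and 41.3 against 33.2 CPM, ratios of 1.25 (1.18 to 1.32) and 1.24 (1.12 to 1.38). Plk1, the polo-like kinase, stood at 46.9 and 53.5 CPM and had the lowest ratio of the group, 0.877 (0.799 to 0.962). The group's median log2 ratio was 0.25.

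At the outer kinetochore, without length correction, the 4 subunits of the Ndc80 complex lay above 1 and the 2 large proteins beside it lay below. Spc24 stood at 179 CPM treated and 101 CPM vehicle, 1.76-fold higher (1.67 to 1.87). Ndc80 stood at 200.5 and 141 CPM, 1.42 (1.35 to 1.495), and Nuf2 at 274 and 207.5 CPM, 1.32 (1.27 to 1.38). Spc25 was at 357 and 312 CPM, 1.14 (1.10 to 1.19). The ratios thus differed within 1 complex, from 1.14 to 1.76, with intervals of Spc24 and Spc25 that do not meet. Knl1, the scaffold that recruits checkpoint proteins, stood at 66.3 and 110 CPM and was 1.66-fold lower (1.54 to 1.78). Cenpf, a large protein of the kinetochore corona, stood at 284 and 545 CPM, 1.92-fold lower (1.85 to 1.98). Their exons span 8542 and 15433 bases, while Spc24 and Spc25 span 2573 and 3188 bases and Ndc80 and Nuf2 6493 and 6341 bases. After the length corrections described further on, Spc25 stood at log2 ratios of -0.02 (exon) and -0.32 (transcript), while Spc24, Ndc80 and Nuf2 stayed above 0. Knl1 and Cenpf stood at -0.28 and -0.18 after exon length correction. After transcript length correction they stood at -0.00 and 0.05.

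Without length correction the checkpoint genes lay on both sides of 1. Bub3, which tethers BUB1 and BUBR1 to kinetochores, stood at 33.4 CPM treated and 21.3 CPM vehicle, 1.57-fold higher (1.38 to 1.78). Mad2l1, whose protein MAD2 binds CDC20, was at 36.3 and 26.2 CPM, 1.38 (1.23 to 1.56), and Cdc20, the target of the checkpoint, at 32.1 and 27.2 CPM, 1.18 (1.05 to 1.34). On the other side, Bub1b, the gene of BUBR1, stood at 460 and 653 CPM, 0.705 (0.685 to 0.725). Bub1, the checkpoint kinase, stood at 37.5 and 49.1 CPM, 0.763 (0.690 to 0.844). Ttk, the kinase MPS1 that starts the signal, stood at 20.8 and 23.5 CPM, 0.884, with an interval that holds 1 (0.768 to 1.02). Of the 6 genes, 3 intervals lay above 1 and 2 below, against 32.5% and 32.2% of all measured genes, and Bub3 alone passed 1.5-fold. After the exon and transcript length corrections described further on, Cdc20 stood at log2 ratios of -0.15 and -0.07. Bub3 stood at 0.95 and, within 1.5-fold, at 0.47, and Mad2l1 at 0.90 and 1.17. Bub1b, Bub1 and Ttk stayed below 0 under both.

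Of the 16 centromere proteins 3 were higher and 1 lower, against 16.2% and 18.8% of all measured genes. Of their intervals 9 lay above 1 and 1 below, against 32.5% and 32.2%. Their median log2 ratio was 0.28, and -0.006 after the transcript length correction described further on. With that correction Cenps, Cenpw and Cenpm were within 1.5-fold, at 0.40, 0.51 and 0.29. Then 2 were higher (Cenpb and Cenpi) and 1 lower (Cenpk), against 9.63% and 11.3% of measured genes. The ratios that follow are without length correction. Cenpa, the histone variant that marks the centromere, was level at 76.1 CPM treated and 73.5 CPM vehicle, 1.04 (0.960 to 1.12). Cenpb, which binds a repeat in centromeric DNA, stood at 1076 and 876 CPM, 1.23 (1.203 to 1.255). Of the small histone-fold proteins, Cenps stood at 50.9 and 26.6 CPM, 1.91-fold higher (1.71 to 2.14), and its partner Cenpx at 9.47 and 7.09 CPM, 1.34 (1.06 to 1.69). Cenpw was 1.84-fold higher (1.39 to 2.46) from 274 against 158 counts, while its partner Cenpt had 275 against 321 counts, 0.910 (0.719 to 1.15). Within the complex of Cenph, Cenpi, Cenpk and Cenpm the ratios also parted. Cenpm was 1.75-fold higher (1.21 to 2.56) from 158 against 96 counts, Cenpi had a ratio of 1.44 and Cenph one of 1.22. Cenpk went the other way, at 55.6 and 86.1 CPM, 1.55-fold lower (1.43 to 1.68). In the group of Cenpo, Cenpp, Cenpq and Cenpu the ratios were 0.916, 1.40, 1.07 and 1.21. Cenpo and Cenpu share 22.5% and 26.7% of their exon length with other genes and are uncertain. Cenpl and Cenpn, a pair that reads the Cenpa nucleosome, had ratios of 1.19 and 1.04 with intervals that hold 1. Cenpj, a centriole protein, and Cenpv were grouped apart from these 16. Cenpj stood at 38.7 and 43.5 CPM, 0.891 (0.804 to 0.987), and Cenpv at 10.6 and 6.46 CPM, 1.64-fold higher (1.30 to 2.07).

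**Figure D2:**
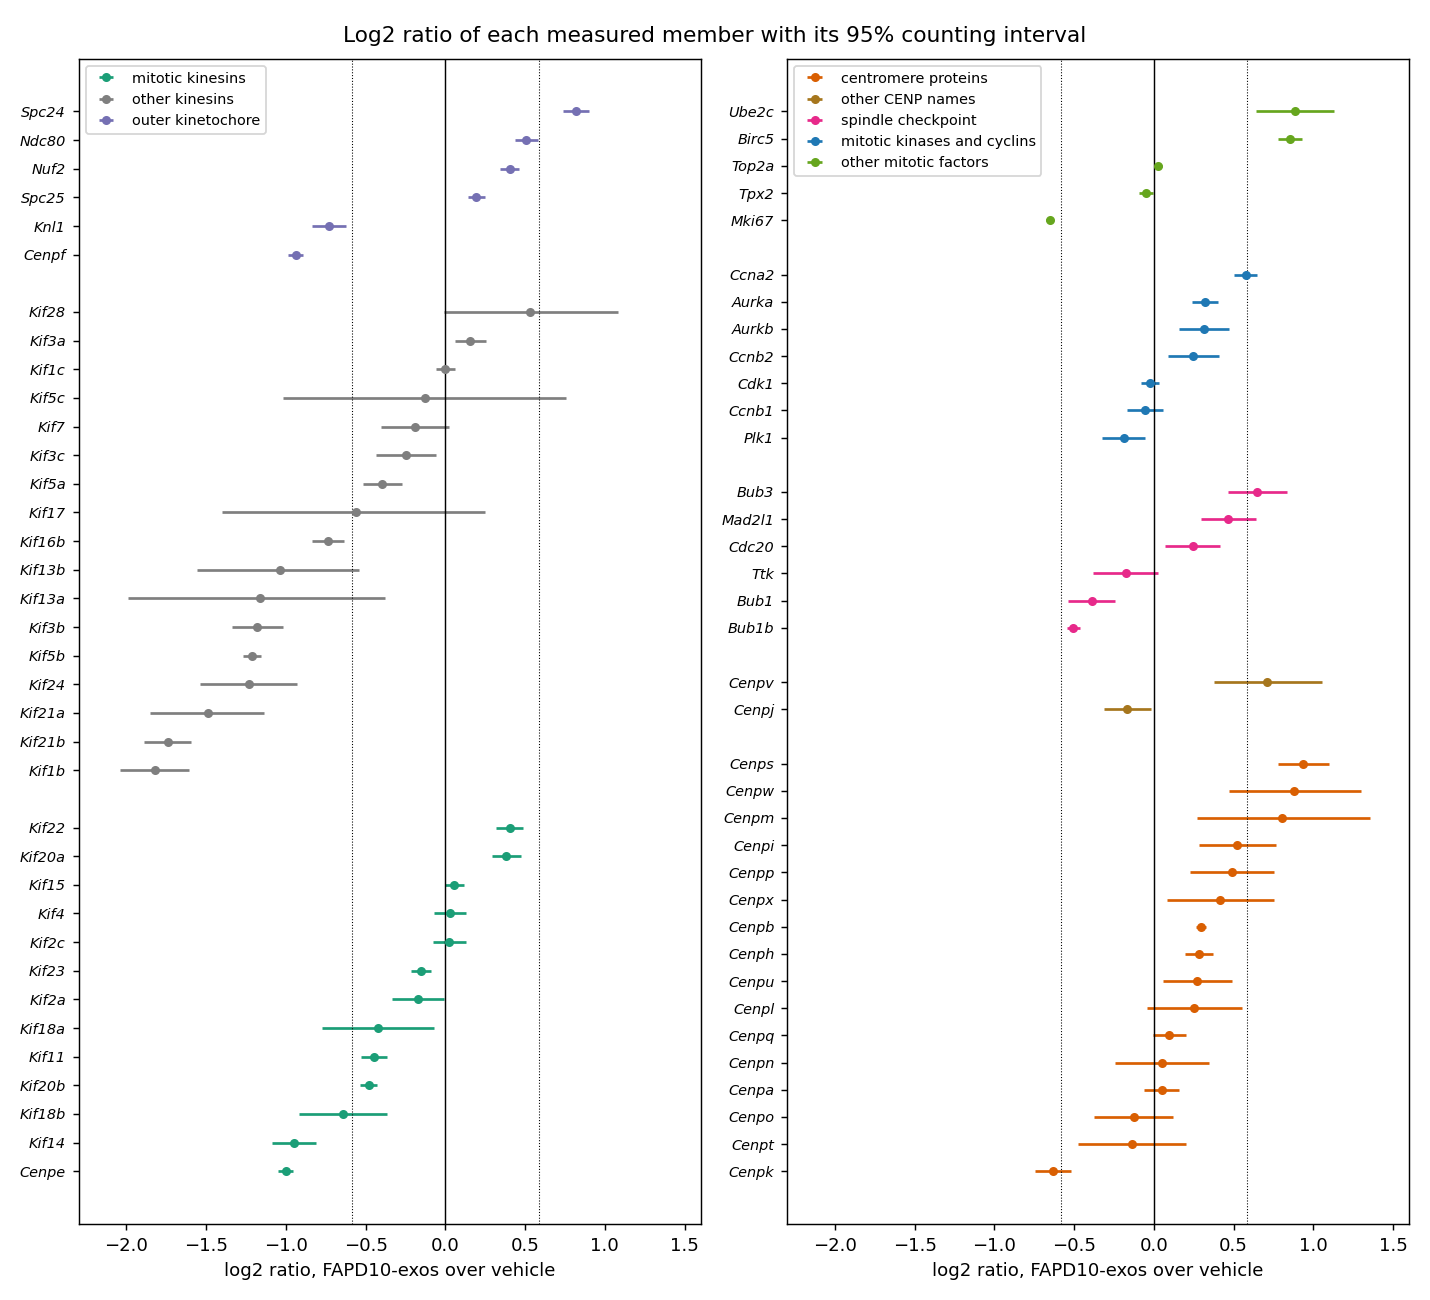
Log2 ratio of each of the 72 measured members, coloured by role, where points are the ratio of the 2 libraries, bars its 95% counting interval and dotted lines mark 1.5-fold. Non-mitotic kinesins reach down to -1.82 for Kif1b, the Ndc80 complex lies to the right of 0, and kinases and cyclins lie between the dotted lines.

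Of the 13 mitotic kinesins measured 0 were called higher and 3 lower, against 16.2% and 18.8% of all measured genes. Of their intervals 2 lay above 1 and 8 below, against 32.5% and 32.2%. Cenpe, the kinesin that brings chromosomes to the spindle equator, stood at 317 CPM treated and 634 CPM vehicle, 2.002-fold lower (1.94 to 2.07). Kif14, a kinesin of cytokinesis, stood at 36.4 and 70.2 CPM, 1.93-fold lower (1.75 to 2.12). Kif18b, which shortens astral microtubules, stood at 9.98 and 15.6 CPM, 1.56-fold lower (1.29 to 1.89). Kif11, the motor that pushes spindle poles apart, stood at 114 and 155.5 CPM, 0.733 (0.692 to 0.776), and Kif20b at 0.717. Kif15, which can take over from Kif11 in spindle assembly, stayed level at 257 and 247 CPM, 1.04 (0.998 to 1.08). Kif23, the motor of the central spindle, stood at 216 and 240 CPM, 0.899 (0.861 to 0.939). Kif2c, a microtubule depolymerase of centromeres, and Kif4, a chromosome-bound motor, were at 1.02 each. The highest ratios of the group were those of Kif22, which pushes chromosome arms, at 142 and 107 CPM, 1.32 (1.25 to 1.40), and Kif20a, at 1.30 and uncertain because 29.3% of its exon length overlaps Cdc23. The group's median log2 ratio was -0.17, and 0.028 after the correction for exon length described further on. With that correction 1 was lower, and with transcript length correction 0, against 15.2% and 11.3% of measured genes.

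Kinesins outside mitosis held the lowest ratios of all members. Of 17 measured, 9 were past 1.5-fold lower and 0 higher, against 18.8% and 16.2% of all measured genes. Their median log2 ratio was -0.74, and -0.41 after either length correction described further on. Exon length correction left 6 lower and 0 higher, against 15.2% and 11.5% of measured genes. Transcript length correction left 6 lower and 2 higher, against 11.3% and 9.63%. Kif1b, a carrier of mitochondria and vesicle precursors, stood at 12.5 CPM treated and 44.1 CPM vehicle, 3.54-fold lower (3.05 to 4.12). Kif21b and Kif21a, related motors that restrain microtubule growth, were 3.35-fold (3.02 to 3.71) and 2.80-fold lower (2.20 to 3.61), at 26.6 against 88.9 CPM and, for Kif21a, 178 against 530 counts. Kif5b, the ubiquitous heavy chain of conventional kinesin, stood at 217 and 503 CPM, 2.32-fold lower (2.23 to 2.41). Its relative Kif5a was at 51.9 and 68.2 CPM, 0.760 (0.698 to 0.828). Kif3b, a subunit of kinesin-II, stood at 25.8 and 58.4 CPM, 2.26-fold lower (2.03 to 2.53), whereas its partner Kif3a stood at 102.5 and 91.9 CPM, 1.12 (1.04 to 1.19). Partners of 1 motor thus lay on either side of 1. Kif24, a centriolar kinesin that restrains cilium formation, was 2.35-fold lower (1.90 to 2.91) from 254 against 633 counts. Kif13a and Kif13b, carriers of membrane cargo, were 2.24-fold (1.30 to 3.98) and 2.06-fold lower (1.45 to 2.95), from 40 against 95 and 98 against 214 counts. Kif16b, which moves early endosomes, was 1.67-fold lower (1.55 to 1.79). Kif1c, a close relative of Kif1b, was level at 248 CPM in each library, 0.999 (0.958 to 1.04). Kif28 had the highest ratio of the group, with 139 against 102 counts, 1.45, and an interval that holds 1 (0.994 to 2.12).

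The positions that follow are the deposited table's own, and no source used here names its mouse build. They differ from those of the GRCm38.p6 promoter windows above and should not be combined with them. Mki67, on the minus strand, ends at 135318090 here, while its window begins at 135716380. Kif1b lies on chromosome 4 from 149260776 to 149392150 on the minus strand, Kif21b (plus strand) on chromosome 1 from 136059127 to 136105736 and Kif3b on chromosome 2 from 153133333 to 153175310. Cenpe lies on chromosome 3 from 134918298 to 134979372, Cenpf on chromosome 1 from 189372803 to 189420283 and Mki67 on chromosome 7 from 135291513 to 135318090. Spc24 lies on chromosome 9 from 21666738 to 21671599 and Cenps on chromosome 4 from 149211578 to 149222086. All were counted over their exons.

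Across the members the ratio went with gene length, as it did across all genes. Over the 72 measured members Spearman's rho between the log2 ratio and exon length was -0.63, and over all 12264 measured genes it was -0.45; these points share both libraries and genes are not independent replicates. With the length of the principal transcript in GENCODE M21 the values were -0.71 over the 72 members and -0.60 over 9916 genes. Of the 24 members with the shortest exon lengths, 1077 to 4211 bases, 7 were higher and 1 lower; their median log2 ratio was 0.32, beside 0.24 for the 5132 measured genes of that span. Of the 24 longest, 6990 to 17809 bases, 1 was higher and 12 lower, with a median of -0.55 beside -0.47 for 2432 genes of that span. The share of all measured genes of each span called higher or lower was not computed. The calls of members by length are therefore not set apart from those of other genes of like length. The 1 higher member among the longest was Bub3, and the 1 lower member among the shortest was Kif18b.

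**Figure D3:**
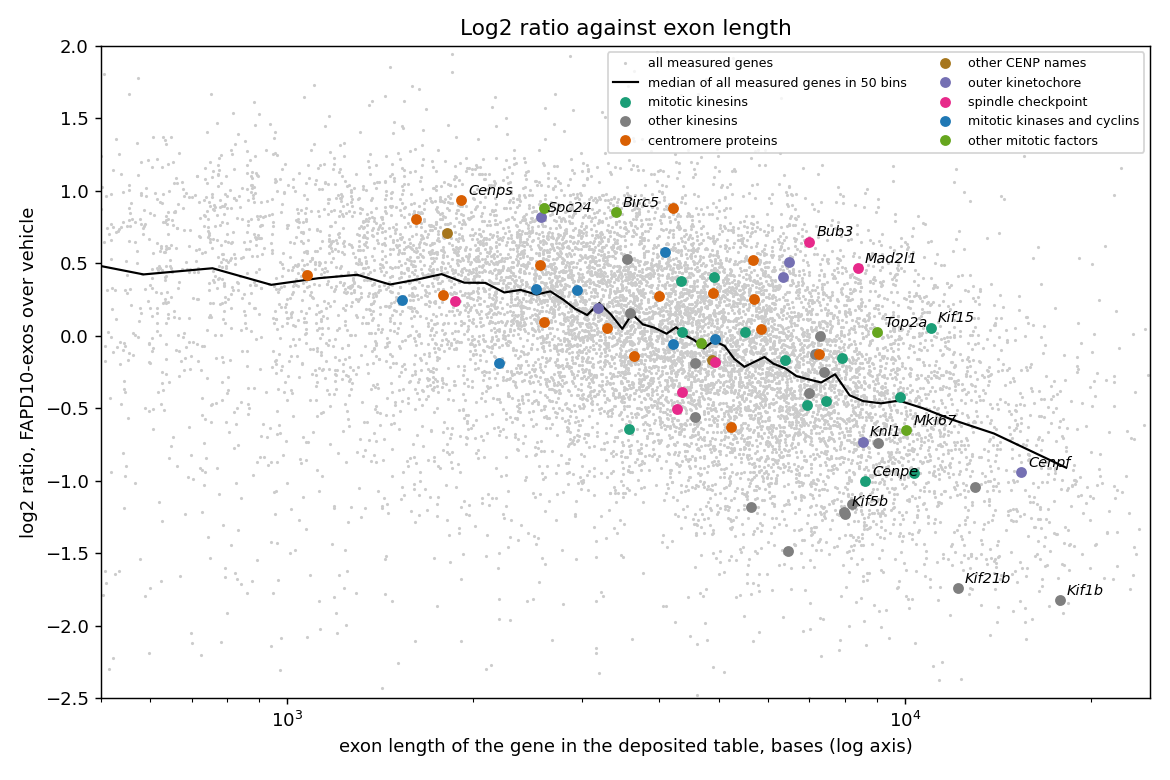
Log2 ratio against exon length on a log axis for all measured genes (grey), with the median of all genes in 50 bins of length (line) and the members coloured by role; genes beyond the axis limits are not drawn. Kif1b, Kif21b and Kif5b lie below the line, Cenpf and Mki67 near it, and Mad2l1, Bub3 and Kif15 above it.

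After subtraction of the running median over exon length, 8 members were called higher and 7 lower, against 11.5% and 15.2% of measured genes. After the same step with transcript length, a choice added after the data were seen, 5 were higher and 7 lower, against 9.63% and 11.3% of 9916 genes. The kinesins Kif1b, Kif21a, Kif21b, Kif24, Kif3b and Kif5b, 6 genes, were lower with no correction and with either. Kif1b stood at -0.93 after exon length and -1.29 after transcript length correction, Kif21a at -1.25 and -0.93, and Kif5b at -0.86 and -0.68. Of the 8 higher members, 4 kept their call after exon length correction and 0 after transcript length correction. Birc5 then stood at 0.75 and 0.21, Ube2c at 0.59 and 0.25, Spc24 at 0.53 and 0.39, and Cenps at 0.56 and 0.40. Bub3 and Cenpw stood at 0.95 and 0.84 after exon length correction, which also brought Ndc80 (0.75) and Nuf2 (0.62) past 1.5-fold. Long mitotic genes that had been lower moved toward 0: Cenpe stood at -0.55 and -0.26, Kif14 at -0.47 and -0.08, Knl1 at -0.28 and -0.00 and Cenpf at -0.18 and 0.05. Mki67 stood at -0.19 after exon length and 0.28 after transcript length correction. Long genes that had been level moved up, Top2a to 0.49 and 0.52 and Kif15 to 0.58 and 0.41. Cenpi and Mad2l1 were past 1.5-fold higher under both corrections, at 0.71 and 0.60 for Cenpi and 0.90 and 1.17 for Mad2l1. Cenpk, whose principal transcript of 1217 bases is much shorter than its exon length of 5231 bases, stood at -0.50 and -1.15. The part of RNA quality or library preparation in the trend with length was not tested.

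**Figure D4:**
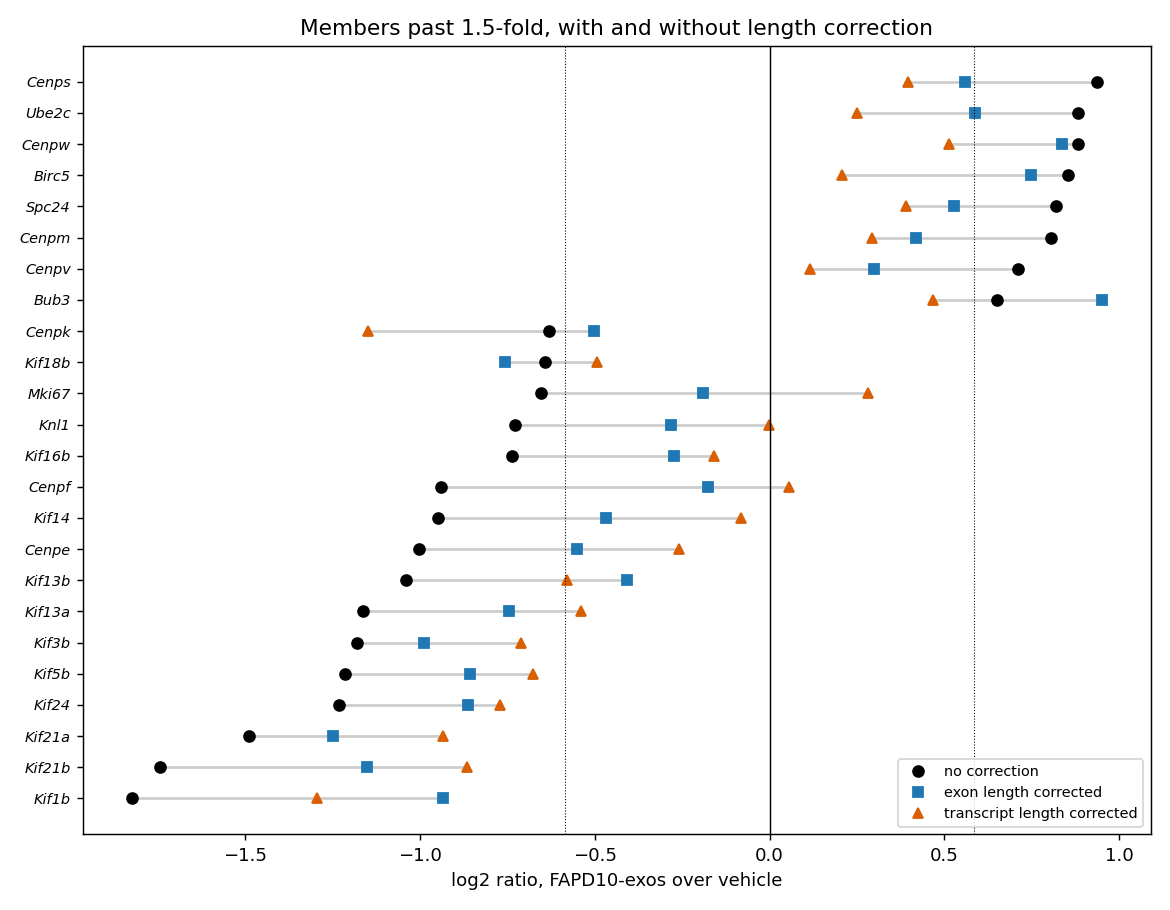
Log2 ratio of the 24 members past 1.5-fold with no correction (circles), after exon length correction (squares) and after transcript length correction (triangles), with dotted lines at 1.5-fold. The 6 kinesins from Kif1b to Kif3b stay left of the lower line in each case, while Cenpf and Mki67 cross 0 after transcript length correction.

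Further genes of cell division were taken from lists that hold no member. Of 116 measured, 16 were called higher and 21 lower, and the median log2 ratio was -0.01. The counts of each list are to be read beside the 16.2% higher and 18.8% lower of all measured genes; most lists are short, and none was tested. The list of the anaphase-promoting complex, the ubiquitin ligase that ends mitosis, and its partners had 6 of 16 genes higher and 1 lower and a median of 0.51. Its RING subunit gene Anapc11 stood at 7.14 CPM treated and 3.47 CPM vehicle, 2.06-fold higher (1.52 to 2.82), and its largest subunit gene Anapc1 at 50.3 and 92.2 CPM, 1.83-fold lower (1.69 to 1.99). After exon length correction the list had 9 higher and 0 lower, beside 11.5% and 15.2% of all measured genes, and after transcript length correction 4 higher and 0 lower, beside 9.63% and 11.3%. Anapc1 was within 1.5-fold under both.

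Condensin, which compacts chromosomes, had 0 of 8 genes higher and 2 lower, and Smc2, a core ATPase subunit, stood at 108 and 296 CPM, 2.74-fold lower (2.60 to 2.89). Ncaph2 had the highest ratio of the condensin genes, at 168 and 124.5 CPM, 1.35 (1.28 to 1.42). Cohesin and separase genes had 1 of 13 higher and 2 lower. Pttg1, the gene of securin that holds separase back, stood at 59.5 and 30.7 CPM and was 1.94-fold higher (1.75 to 2.15), and Stag2, a cohesin subunit, at 126 and 211 CPM was 1.68-fold lower (1.59 to 1.77). Among cytokinesis genes 4 of 8 were lower and 0 higher. They ran from Cit, citron kinase, at 29.1 and 77.6 CPM, 2.67-fold lower (2.41 to 2.96), to Rhoa at 279.6 and 240.3 CPM, 1.16 (1.12 to 1.21). After exon length correction 1 of 8 was lower, and after transcript length correction 1 of 7. The list's median log2 ratio moved from -0.57 to -0.40 and -0.42. That of cohesin and separase moved from -0.32 to 0.04 and 0.22, and that of condensin from -0.32 to 0.01 and 0.02.

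Partners of the centromere and checkpoint had 1 gene higher and 1 lower in each list. Hjurp, the chaperone that loads Cenpa, stood at 150 and 331 CPM, 2.21-fold lower (2.11 to 2.31), while Cenpa itself was level without length correction. After exon and transcript length correction Hjurp stood at -0.71 and -0.79, and Cenpa at 0.21 and -0.36. Pmf1 of the Mis12 complex stood at 141 and 78.5 CPM and was 1.79-fold higher (1.68 to 1.91). Trip13, an ATPase that remodels MAD2, stood at 88.8 and 48.1 CPM, 1.84-fold higher (1.70 to 2.004), and Kntc1, which brings MAD1 and MAD2 to kinetochores, stood at 15.4 and 23.2 CPM and was 1.51-fold lower (1.29 to 1.76). In the spindle assembly list 4 of 22 were higher and 3 lower, from Tacc3 at 485 and 258 CPM, 1.88-fold higher (1.82 to 1.95), to Hmmr at 116 and 213 CPM, 1.83-fold lower (1.73 to 1.93). Regulators of mitotic entry and cell cycle transcription had 2 of 19 higher, led by Pkmyt1 with 277 and 179 counts at 1.64 (1.25 to 2.17), and 4 lower, led by E2f7 with 275 and 643 counts at 2.20-fold lower (1.80 to 2.71). Genes of G1 and S phase had 1 of 11 higher, Cdkn2d with 302 and 202 counts at 1.59 (1.23 to 2.06), and 3 lower, led by Cdk6 with 492 and 1200 counts at 2.30-fold lower (1.98 to 2.67). After length correction some of these calls ended: Cdk6 stood at -0.52 after exon length and -0.18 after transcript length correction, Stag2 at -0.32 and -0.22, Kntc1 at -0.23 and 0.0396, Cdkn2d at 0.29 and 0.25 and Pkmyt1 at 0.58 and 0.49. Cit (-0.51), Pttg1 (0.31) and Pmf1 (0.23) were within 1.5-fold after transcript length correction. Smc2, Hjurp, Hmmr and E2f7 were called lower, and Tacc3, Trip13 and Anapc11 higher, under both.

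**Figure D5:**
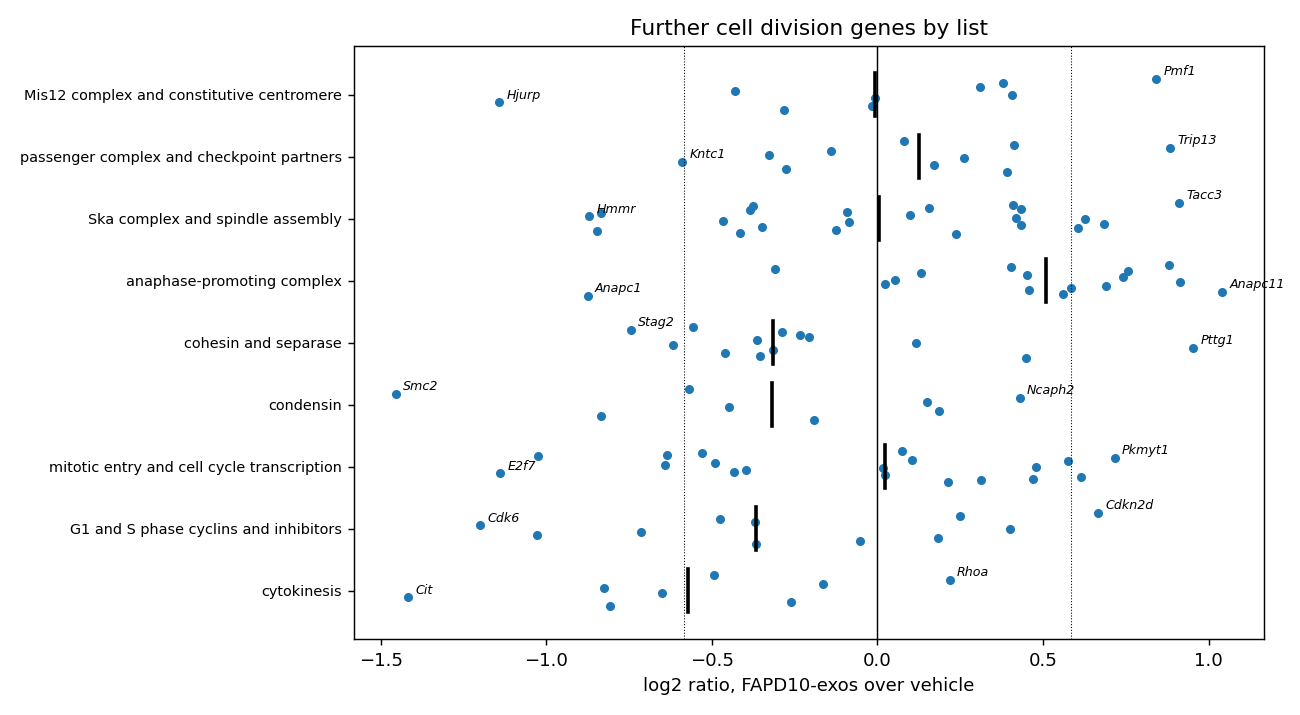
Log2 ratio of the 116 further division genes measured, by list, with 1 point a gene, a vertical bar at each list's median, dotted lines at 1.5-fold and the highest and lowest gene of each list named. The anaphase-promoting complex has the highest median, 0.51, and the cytokinesis list the lowest, -0.57.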

How the data were processed

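The authors deposited 1 table of raw counts per gene symbol for both libraries, in the featureCounts layout per the file headers, and each sample's description in the labels names its column. Its other deposited column used here is exon length in bases. The submitters' processing notes list STAR 2.5.3a, fastp 0.23.4 and featureCounts with the build GRCh38, which is human although the symbols are mouse. No source used here gives the annotation, the strand setting or the treatment of multiply mapped reads.

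With 1 library per group there is no residual spread for edgeR to estimate, and no p-values are given. The deposited counts were scaled by TMM (edgeR 4.0.16, R 4.3.3; factors 0.957 treated, 1.05 vehicle). Intervals are 95% Clopper-Pearson intervals of the treated share of both counts, each halved. Measured genes had a mean over both libraries of 1 CPM or more. Higher or lower means at least 1.5-fold with an interval that excludes 1. TPM was computed here from counts and exon length. The length correction subtracted a running median over 50 bins. The interval and trend code was tested on simulated data.

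Named genes were the 10 highest and 10 lowest members, 25 fixed members, and the highest and lowest of each role group and list. The other members and markers named were chosen after their values were seen. The members and lists were chosen with earlier results of these data known. Alternatives were scaling by total counts, median of ratios (DESeq2 1.42.0) or upper quartile, other filters and thresholds, intervals from counts as deposited, 1 CPM added, and length corrections. Motifs were searched in RefSeq windows of GRCm38.p6. Python 3.11.15 was used with scipy 1.17.1, pandas 2.3.3, matplotlib 3.10.9 and numpy 2.4.6.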

Additional observations from a re-analysis of the deposited data

How the results depend on the processing

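With 8 members higher and 16 lower as reported, scaling by total counts, median of ratios or upper quartile, no filter, 1 CPM added and intervals from counts as deposited kept both counts within 1.5 times. A filter at 10 CPM left 5 higher and a 2-fold threshold left 0 higher and 9 lower. Exon length correction left 7 lower, and transcript length correction left 5 higher and 7 lower. Scaling by total counts moved the median of all measured genes by -0.13 in log2 and the share of higher genes among those called from 46.3% to 31.5%. The members' median was -0.14 under that scaling, a shift like that of all genes. Of the further division genes, 10 were higher under scaling by total counts, 11 were lower after exon length correction, and 10 were higher and 10 lower after transcript length correction.

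The median of mitotic kinesins changed sign, to 0.028, after exon length correction and was -0.0094 after transcript length correction. That of centromere proteins was -0.006 after transcript length correction. That of kinases and cyclins was 0.0143 after exon length and 0.0621 after transcript length correction. The outer kinetochore median was 0.17 under scaling by total counts, 0.37 under upper quartile and 0.16 after transcript length correction. The median of Tpx2, Birc5, Top2a, Mki67 and Ube2c was -0.0177 with the median of ratios, -0.10 with total counts, 0.0931 with the upper quartile, 0.49 after exon length and 0.25 after transcript length correction. Of the 61 named genes 9 changed sign after transcript length correction, among them Cenpf (0.0549), Mki67 (0.28) and Kntc1 (0.0396), which had been called lower. The other sign changes of the 61 were in genes within 1.5-fold. After transcript length correction these were Cdk1, Tpx2, Cenpa, Cenpj, Ccnb2 and Cdc20, and after exon length correction 5 genes (Ccnb2, Cdc20, Cdk1, Kif23, Tpx2). Cenpa and Top2a changed sign with total counts, Top2a with the median of ratios, and Ccnb1, Cdk1 and Tpx2 with the upper quartile. Members outside the 61 are not counted here, among them Spc25, which changed sign under both length corrections. The length corrections remove any difference shared by genes of like length, and what causes that trend was not tested. No paired analysis was possible because each group has 1 library. Among measured members, depth limits Kif13a, Kif17 and Kif5c most, at 40 to 95 counts a library.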

Other observations

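Of the 10 members below the filter, Kif2b, Kif6 and Kif26a had 0 counts in both libraries, and the other 7, all kinesins outside mitosis, had 0 to 26 counts a library. Kif1a, a neuronal carrier of vesicle precursors, had 26 against 12 counts, with an interval that holds 1. Of the pseudogenes named after members, Kif4-ps and Kif22-ps had 0 counts in both libraries, Ccnb2-ps had 0 against 6 and Ccnb1-ps had 36 against 38.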
